A study of Mus musculus with 40 samples.

Results

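The AP-1 Fos and Jun family was followed through every group of 2 aortic RNA-seq experiments in mice. Its members were taken by gene symbol, after earlier results of these data were known, and comprised Fos, Fosb, Fosl1, Fosl2, Jun, Junb and Jund. All 7 members were listed in both experiments, among 14424 protein-coding genes for the genotype experiment and 13741 for the CsA experiment.

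The genotype experiment used male mice of C57BL/6J background. Mice labelled SM-Cn-/- carried floxed Cnb1 (Ppp3r1), the gene of the regulatory subunit of calcineurin (Cn), together with Myh11-CreERT2, a tamoxifen-inducible Cre driven by a smooth muscle promoter. Cn-Ctl mice either carried floxed Cnb1 without Cre or wild-type Cnb1 with Myh11-CreERT2. All of these mice received tamoxifen (1 mg per day for 5 days, begun at 10 to 12 weeks of age) and were used 6 weeks later, untreated or after 2, 6 or 24 h of angiotensin-II (Ang-II, 1 µg/kg/min by osmotic minipump). The CsA experiment used WT C57BL/6J males, either without pretreatment (WT) or after 5 days of cyclosporine A (CsA, 5 mg/kg per day by minipump), an inhibitor of the Cn phosphatase, and both arms were untreated or received Ang-II for 2 or 24 h. The WT arm had no pump during the pretreatment days. Pumps were implanted under isoflurane anesthesia, and the study describes its control mice as operated on likewise but given no pump. It does not give the time from that operation to harvest for the untreated groups. Each library was a pool of 3 aortas stripped of perivascular tissue and adventitia, and each group had 3 libraries except untreated Cn-Ctl and Cn-Ctl after 24 h of Ang-II, which had 2 each. Treated Cn-Ctl, WT and CsA mice were kept only with a systolic blood pressure above 130 mmHg. Treated SM-Cn-/- mice were kept at any pressure, and the study states that none of them had a raised pressure after Ang-II. The treated genotypes thus also differed in pressure and in how mice were selected, which cannot be told apart from genotype. Pressure readings are described at 2 and 24 h of Ang-II and not at 6 h. Mutant mice in which the deletion could not be verified were excluded, as were CsA mice in which NFAT dephosphorylation in the thymus was not inhibited.

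AP-1 is a dimeric transcription factor built from basic leucine zipper proteins. Jun proteins can pair with each other or with a Fos protein, whereas Fos proteins need a Jun partner to bind DNA stably. Fos, Fosb, Jun and Junb are immediate early genes, which are transcribed within minutes of a stimulus without new protein synthesis, Fosl1 and Fosl2 usually follow later, and Jund is present in most resting cells. In vascular smooth muscle, Ang-II acts through its AT1 receptor, calcium and mitogen-activated protein kinases, and the induction of Fos and Jun is a long-known part of that response.

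Values are given as signal, the deposited normalized value. It is the read count with 0.5 added, taken relative to the library size after scaling and expressed per M reads. Reads assigned to genes ranged from 2.73 to 10.25 M per library in the genotype experiment and from 18.98 to 38.9 M in the other, so that low members are measured more precisely in the latter. Differences are log2 fold changes of signal plus 0.5 with their standard errors (SE) from a limma fit across all protein-coding genes, and a gene passed the test when its Benjamini-Hochberg adjusted p was under 0.05. The targeted gene did not mark the genotype: Ppp3r1 signal was 41.8 to 118 over the 12 SM-Cn-/- libraries and 45.7 to 134 over the 10 Cn-Ctl libraries, and the genotypes did not pass the test at any of the 4 times (limma adjusted p from 0.429 to 0.983). The study's methods describe a PCR check of Cnb1 recombination in a piece of each aorta. Its immunoblots are reported to show less protein of the regulatory and the catalytic Cn subunit in mutant aortas. The RNA table holds a single value for the whole gene, in which the deleted part cannot be read apart, so the mutant group is called by its label throughout and the direction of each genotype difference rests on that label. Rcan1, a known target of Cn phosphatase signaling, rose by 2.96 ± 0.21 (SE) in WT and by 1.93 ± 0.21 after CsA at 2 h of Ang-II, and was lower in CsA than in WT at that time (limma adjusted p = 0.0182). In the genotype experiment Rcan1 rose by 3.42 in Cn-Ctl at 2 h, and its difference in SM-Cn-/- (0.32) did not pass (limma adjusted p = 0.7). All 8 smooth muscle markers examined (among them Myh11 and Acta2) were listed, with a summed signal of 22900 to 52100 per library by genotype and 17700 to 38300 in the CsA libraries, and no listed marker of another cell type was at 0 in every library.

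The promoters of Fos, Fosb and Jun are shown because these were the 3 members whose response to 2 h of Ang-II differed by genotype in the test of the difference itself. Promoter windows from RefSeq (GRCm38.p6, from 250 bases before to 50 bases after the start site) were found for 6 of the 7 members, all except Fosl1. The 250 bases before each start are given 5′ to 3′ on the strand of the gene, with capitals marking a match to the MEF2 box. The windows are chr12:85473640-85473889 on the + strand for Fos, chr7:19310046-19310295 on the − strand for Fosb and chr4:95052223-95052472 on the − strand for Jun.
Fos promoter: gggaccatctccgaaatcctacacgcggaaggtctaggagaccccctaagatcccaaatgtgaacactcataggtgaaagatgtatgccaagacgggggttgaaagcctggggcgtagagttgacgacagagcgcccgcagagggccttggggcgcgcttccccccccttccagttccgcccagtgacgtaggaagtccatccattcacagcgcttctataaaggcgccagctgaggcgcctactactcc
Fosb promoter: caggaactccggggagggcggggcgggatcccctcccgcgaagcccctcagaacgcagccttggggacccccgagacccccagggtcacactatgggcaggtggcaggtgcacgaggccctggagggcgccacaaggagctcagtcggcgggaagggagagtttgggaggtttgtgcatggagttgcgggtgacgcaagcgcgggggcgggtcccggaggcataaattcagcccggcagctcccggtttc
Jun promoter: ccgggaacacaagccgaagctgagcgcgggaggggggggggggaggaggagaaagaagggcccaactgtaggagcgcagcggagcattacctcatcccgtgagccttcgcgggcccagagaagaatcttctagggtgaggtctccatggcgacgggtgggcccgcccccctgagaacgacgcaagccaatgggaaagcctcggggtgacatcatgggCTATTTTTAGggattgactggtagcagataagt

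Both strands of the 6 windows were searched for the serum response factor site (CArG box), the cyclic AMP response element TGACGTCA, the AP-1 site TGANTCA, the MEF2 box and the NFAT core GGAAA. NFAT factors are dephosphorylated by Cn and then enter the nucleus, and MEF2 factors also respond to calcium. The RefSeq window of Jund ended upstream of the gene coordinates given below and that of Fosl2 lay inside its gene, so the annotated gene starts of these 2 members were not covered. Jun held the only matches among the 6 windows: the MEF2 box CTATTTTTAG at −33 to −24 from the start and GGAAA at −59 to −55. The MEF2 box occurred in 3.19% of the 32851 promoter windows of the table and GGAAA in 61.3%, against 1.63% for the CArG box, 1.79% for TGACGTCA and 7.81% for TGANTCA. These are matches of letters in a short window and say nothing of binding, and sites outside the window were not examined.

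To determine how the family responded to Ang-II when Cn was not deleted, treated and untreated Cn-Ctl aortas were compared. After 2 h, 5 of the 7 members rose (6.23% of all genes passed this test), all 4 Fos genes and Jun. The median log2 fold change of the 7 members was 2.40, against 0.01 over all genes, and the libraries of the groups did not overlap for any member. With 2 or 3 libraries per group, libraries can lie apart without a change. The share of all genes whose libraries did so was not counted, here or below. Summed markers of adventitial fibroblasts (7 markers, 896 to 1660 untreated and 1750 to 2750 at 2 h) and macrophages (7 markers, 81.9 to 116 and 122 to 339) also lay higher in the treated libraries, and their part in these rises was not tested.

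Among the Fos genes, Fos (chr12:85473890-85477273, + strand, 4 exons), the prototype of the family, had signals of 16.1 and 28.0 in untreated Cn-Ctl and 99.2, 428 and 312 after 2 h. The first treated library was lower than the other two, yet all 3 lay above both untreated libraries. Fos rose by 3.45 ± 0.48 (SE; limma adjusted p = 4.91e-05). Fosb (chr7:19302696-19310051, − strand, 4 exons), whose splice form ΔFosB is an unusually stable protein, went from 9.54 and 16.5 to 293, 449 and 236, a rise of 4.59 ± 0.54 (limma adjusted p = 7.17e-06).

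Fosl1 (chr19:5447547-5455946, + strand, 4 exons), which encodes a Fos protein without the transactivation domain of Fos, was close to the limit of detection in untreated Cn-Ctl, with 6 reads in replicate 2 and 0 reads in replicate 3. After 2 h it had signals of 31.2, 17.7 and 3.44, so that the treated libraries differed among themselves more, on the log scale, than those of the other 6 members. The fitted rise was 3.83 ± 0.86 (limma adjusted p = 0.00703), a value that depends on the pseudocount and that no longer passed without untreated replicate 3 (3.19) or without treated replicate 1 (3.20). Fosl2 (chr5:32135801-32157842, + strand, 4 exons), the more abundant relative of Fosl1, rose from 59.6 and 95.0 to 395, 417 and 389, by 2.40 ± 0.29 (limma adjusted p = 1.06e-05), with the tightest treated libraries of the Fos genes.

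Of the Jun genes, Jun (chr4:95049034-95052222, − strand, 1 exon), the prototype of its class, rose from 69.3 and 53.2 to 222, 367 and 314, by 2.27 ± 0.21 (limma adjusted p = 3.4e-07). Junb (chr8:84974484-84978718, − strand, 1 exon), which can oppose Jun in growth control, had signals of 1.97 and 4.11 untreated and 7.08, 15.7 and 5.28 after 2 h, and the difference of 1.40 ± 0.52 did not pass (limma adjusted p = 0.121). Its library counts ranged from 5 to 99 reads in this experiment. Jund (chr8:70698949-70700616, + strand, 1 exon), the constitutive member, had 116 and 110 untreated and 439.6, 292 and 139 after 2 h. Its difference of 1.20 ± 0.39 did not pass either (limma adjusted p = 0.0765), with treated replicate 3 close to the untreated level, and it passed when that library was left out (1.66) and in DESeq2 (1.35).

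The same 2 h of Ang-II was then examined in aortas labelled SM-Cn-/-. Here 0 of the 7 members passed in limma (1.13% of all genes passed, and 1870 genes had an unadjusted p under 0.05), and the median of the members was −0.09 against −0.01 over all genes, with Fosl1 above the median both at its fitted value and at its bound. DESeq2 on the recovered reads called 1 member, Fosl2, and edgeR called none. Fibroblast markers were again higher at 2 h (2090 to 2480 against 1200 to 1950), as were smooth muscle markers (28100 to 34400 against 22900 to 26600), and their part was not tested.

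Fos had signals of 12.8, 21.1 and 19.0 in untreated SM-Cn-/- and 19.2, 15.9 and 13.8 after 2 h. The ranges overlapped, and the difference was −0.09 ± 0.43 (SE; limma adjusted p = 0.951). Fosb had 13.2, 13.1 and 16.5 untreated and 11.7, 13.3 and 14.5 after 2 h, again overlapping, with a difference of −0.11 ± 0.48 (limma adjusted p = 0.944). Jun had 66.8, 75.9 and 65.7 untreated and 75.3, 74.4 and 91.2 after 2 h, a difference of 0.20 ± 0.19 (limma adjusted p = 0.668).

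Both Fos-like genes were higher in all 3 treated than in all 3 untreated SM-Cn-/- libraries. Fosl1 had 0 reads in each untreated library and 12, 4 and 9 reads after 2 h, which is at least 6.13-fold higher when 3 reads over the untreated group are taken as the floor. Fosl2 had 128, 79.2 and 48.2 untreated and 199, 134 and 164 after 2 h, and its difference of 1.05 ± 0.26 missed the threshold (limma adjusted p = 0.0511) and crossed it under 4 of the alternatives tried, with the replicate block, in DESeq2, with a stricter filter or without untreated replicate 1. Junb lay lower in all 3 treated libraries (1.67, 1.96 and 0.889 against 2.61, 2.68 and 3.93), a difference of −0.86 ± 0.46 that did not pass (limma adjusted p = 0.444). Jund had 127, 122 and 102 untreated and 84.6, 85.4 and 143 after 2 h, with overlapping ranges.

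**Figure D1:**
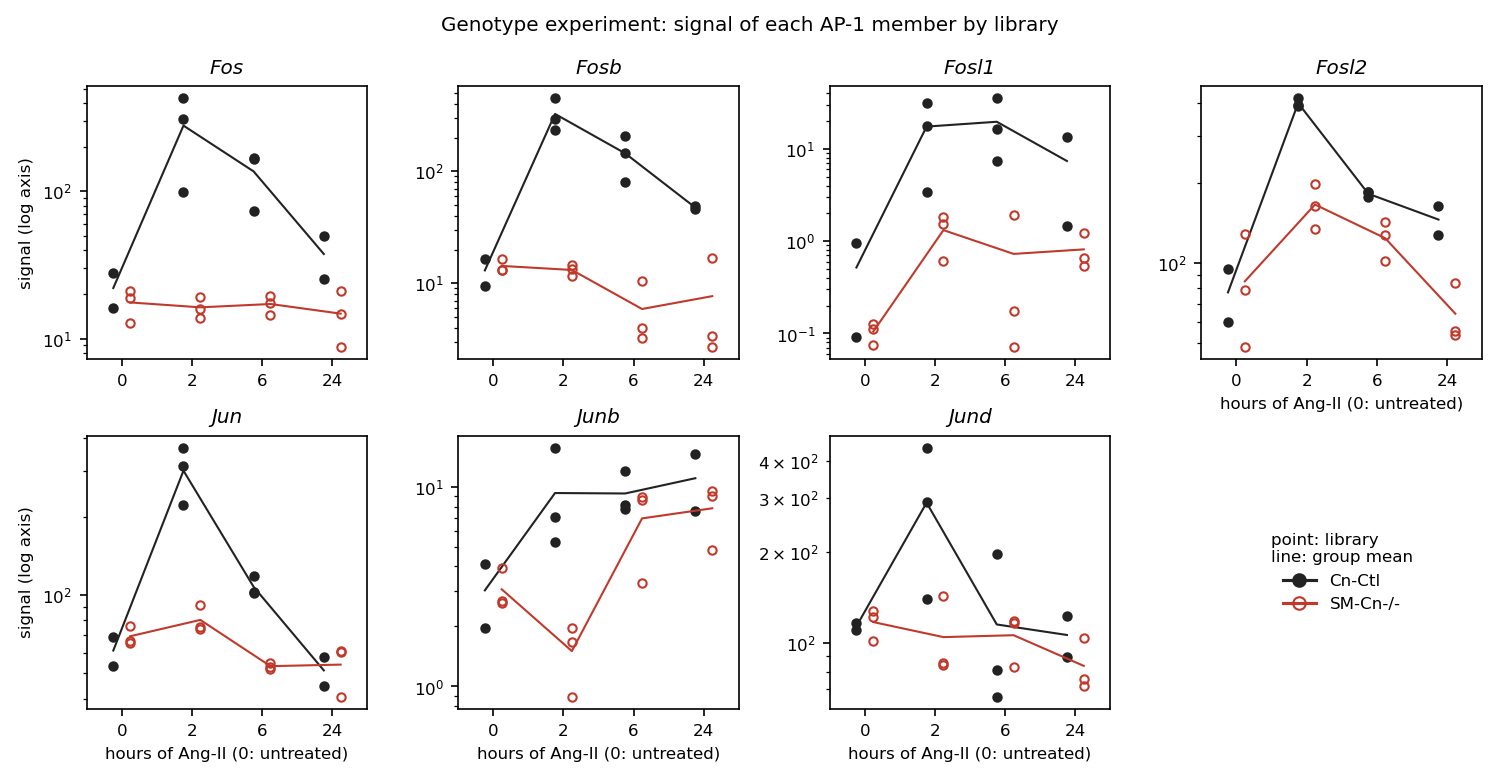
Signal of each AP-1 member (log axis) in every library of the genotype experiment against hours of Ang-II, with 0 for untreated. Filled points are Cn-Ctl libraries, open points are libraries labelled SM-Cn-/-, lines join group means, and Fosl1 libraries with 0 reads are drawn at the value that 0.5 reads give. At 2 h the Cn-Ctl points for Fos (99.2 to 428), Fosb (236 to 449) and Jun (222 to 367) stand apart from the SM-Cn-/- points (13.8 to 19.2, 11.7 to 14.5 and 74.4 to 91.2).

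To ask whether the genotypes differed, the treated groups were compared with each other. At 2 h all 7 members were lower in SM-Cn-/- than in Cn-Ctl (3.7% of all genes passed), with a median of −2.19 against 0.00 over all genes. The libraries did not overlap for 6 members, a count not set against all genes. For Jund the highest SM-Cn-/- library (143) exceeded the lowest Cn-Ctl library (139). The largest differences were those of Fosb at −4.53 ± 0.48 (SE; limma adjusted p = 4.44e-06) and Fos at −3.83 ± 0.43 (9.2e-06). Fosl1 differed by −2.92 ± 0.77 (0.0332), Fosl2 by −1.29 ± 0.26 (0.00465), Jun by −1.88 ± 0.19 (3.12e-06), Junb by −2.19 ± 0.46 (0.0063) and Jund by −1.37 ± 0.35 (0.0294), the values in parentheses being limma adjusted p. The calls of Fos, Fosb, Fosl2 and Jun held whichever library was left out, whereas Jund lost its call without any of 4 libraries (−0.99 without Cn-Ctl replicate 1, −1.29 without replicate 2, −1.24 and −1.25 without SM-Cn-/- replicate 1 or 2), Fosl1 without any of 5 (−2.29 to −3.13), and Junb without Cn-Ctl replicate 2 (−1.76). The count was 6 of 7 under 3 other settings, with Jund lost under quantile normalization (−1.12) and when only these groups were fitted, and Fosl1 lost with a pseudocount of 0 (−3.38). Before treatment, 0 of the 7 members differed between the genotypes (0.0139% of all genes passed in limma, and 757 genes had an unadjusted p under 0.05), and the libraries overlapped for all 7.

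The response to Ang-II itself was then compared between the genotypes, as the difference of the 2 log2 fold changes. At 2 h, 3 members passed (0.513% of all genes passed), with smaller responses in SM-Cn-/-, at −4.70 ± 0.73 for Fosb (SE; limma adjusted p = 0.00244), −3.54 ± 0.64 for Fos (0.0101) and −2.07 ± 0.29 for Jun (0.00102). The difference was also below 0 for the other 4 members but did not pass, at −2.31 ± 1.156 for Fosl1 (limma adjusted p = 0.647), −1.35 ± 0.39 for Fosl2 (0.193), −2.26 ± 0.69 for Junb (0.243) and −1.41 ± 0.53 for Jund (0.426). Fosl2 passed in DESeq2 (−1.43) and without untreated SM-Cn-/- replicate 3 (−1.70). The value for Fosl1 rests on an untreated group with 0 reads and changed sign in edgeR (0.80). The call of Fos was lost without untreated Cn-Ctl replicate 2 (−3.15), and Fosb and Jun kept theirs whichever library was left out. These comparisons share treated and untreated libraries with those above and are not independent of them.

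Smooth muscle markers overlapped between the treated genotypes at 2 h, with summed signals of 28100 to 34400 in SM-Cn-/- and 29800 to 38500 in Cn-Ctl. The 8 endothelial markers did not, at 689 to 888 in SM-Cn-/- and 327 to 564 in Cn-Ctl, and they also lay apart before treatment (582 to 762 against 341 to 454). In the untreated groups, which enter the difference in response, smooth muscle markers were lower in SM-Cn-/- (22900 to 26600 against 31300 to 32100) and macrophage markers higher (142 to 259 against 81.9 to 116). In bulk aortic tissue, fewer cells of a type and less RNA per cell cannot be told apart, and the part of these markers in the differences of the family was not tested.

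At 6 h, 5 members were still above untreated in Cn-Ctl (3.97% of all genes passed). Fosl1 had signals of 7.36, 16.5 and 35.3, a rise of 4.19 (limma adjusted p = 0.00579), Fosb had 80.4, 146 and 208, a rise of 3.37 (0.00058), and Fos had 166, 169.6 and 74.1, a rise of 2.56 (0.00259). Fosl2, at 177, 185 and 185, was 1.27 above untreated (0.0135), and Jun, at 102, 102 and 118, was 0.82 above (0.031). With 2 untreated libraries the calls at 6 h are fragile: without untreated replicate 2 those of Fos (2.17), Fosl2 (0.94) and Jun (1.01) were lost, without replicate 3 those of Fosl1 (3.54) and Jun (0.63), and without treated replicate 2 or 3 that of Jun (0.85 and 0.75). Fosl2 and Jun also lost theirs when only the groups compared were fitted. Summed markers of macrophages (142 to 338 against 81.9 to 116 untreated), endothelium (541 to 636 against 341 to 454) and smooth muscle (35000 to 36500 against 31300 to 32100) were higher in Cn-Ctl at 6 h. Fibroblast markers overlapped, and the part of markers in these rises was not tested.

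Against the 2 h libraries, 2 members had fallen by 6 h in Cn-Ctl, Jun by −1.45 (limma adjusted p = 0.000276) and Fosl2 by −1.13 (0.0275), where 1.67% of all genes passed. By 24 h, 5 members lay below their 2 h level (7.37% of all genes passed): Jun at −2.52, Fos and Fosb at −2.72 each, Fosl2 at −1.47 and Jund at −1.32. The call of Fosl2 at 6 h was lost without any of the 6 libraries (−1.10 to −1.15) and under quantile normalization (−0.88). At 24 h those of Fos (−2.24) and Fosb (−2.67) were lost without 24 h replicate 3, and that of Jund without either 24 h library (−1.09 without replicate 2, −1.54 without replicate 3), without 2 h replicate 1 (−0.94) or 2 (−1.24), and under 4 other settings. Compared with untreated Cn-Ctl, 0 members passed at 24 h (5.62% of all genes passed in limma, 2890 genes had an unadjusted p under 0.05, and DESeq2 called 1 member), although Fosb (48.9 and 46.0), Fosl1 (1.46 and 13.3), Fosl2 (128 and 163) and Junb (7.56 and 14.6) lay above both untreated libraries.

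In SM-Cn-/-, 0 members passed against untreated at 6 h (2.34% of all genes passed in limma, 2364 genes had an unadjusted p under 0.05) or at 24 h (0.79%, 1660 genes). Fosb had 10.4, 3.22 and 3.99 at 6 h and 16.9, 2.70 and 3.36 at 24 h, and at 6 h all 3 libraries lay below the untreated ones. Fos (20.9, 14.6 and 8.79 at 24 h) overlapped its untreated range, and Jun (60.2, 61.2 and 40.7 at 24 h) lay below its own. Fosl1 (5, 3 and 13 reads at 24 h, against 0 in each untreated library) lay above its untreated range without passing (limma adjusted p = 0.653). Junb at 24 h did so as well (0.284). Junb also rose between treated times. It went from 1.67, 1.96 and 0.889 at 2 h to 8.95, 8.67 and 3.30 at 6 h (1.83, limma adjusted p = 0.0488). At 24 h it had 9.59, 4.87 and 9.06 (2.04 above 2 h, 0.0164). It was the only member to pass between 2 and 6 h (1.41% of all genes passed), a call lost without any of the 6 libraries involved (1.58 to 2.26), and 1 of 2 between 2 and 24 h (3.65% of all genes passed), where Fosl2 fell by −1.37 (0.00616). The calls at 24 h were lost without 2 h replicate 1 (Fosl2 −1.23, Junb 2.12), and that of Junb also without 24 h replicate 1 (1.88) or 3 (1.92).

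Between the genotypes, 4 members remained lower in SM-Cn-/- at 6 h (1.98% of all genes passed): Fosb by −4.57 (limma adjusted p = 7.5e-06), Fosl1 by −4.10 (0.00451), Fos by −2.87 (0.000574) and Jun by −1.003 (0.00518). Fos had 19.6, 14.4 and 17.5 in SM-Cn-/- at this time, and the libraries of these 4 members and of Fosl2 did not overlap. Fosl1 had 15, 0 and 0 reads in SM-Cn-/- at 6 h, so the size of its difference depends on the pseudocount. When only the groups compared were fitted, Fosl1 and Jun lost their calls at 6 h, as did Fosb at 24 h. At 24 h, 2 members passed (4.94% of all genes passed), Fosb by −3.00 (0.00175) and Fosl2 by −1.19 (0.0178). Fosl2 had 84.1, 55.1 and 53.6 in SM-Cn-/- against 128 and 163 in Cn-Ctl, and its call was lost without Cn-Ctl replicate 3 (−1.02) or SM-Cn-/- replicate 2 (−1.10) or 3 (−1.08). Markers moved with these differences as well. Summed smooth muscle markers at 6 h were 25400 to 31300 in SM-Cn-/- and 35000 to 36500 in Cn-Ctl. At 24 h endothelial markers were 1140 to 1210 against 495 to 500 and adipocyte markers 912 to 1590 against 173 to 832. The part of these markers was not tested.

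The difference in response passed for 1 member at 6 h, Fosb (0.0624% of all genes passed), at −4.74 ± 0.73 (SE; limma adjusted p = 0.0148). This call was lost without untreated Cn-Ctl replicate 2 (−4.36), untreated SM-Cn-/- replicate 1 (−4.79) or SM-Cn-/- 6 h replicate 3 (−4.58). At 24 h the difference passed for 0 members (0.513% of all genes passed in limma, 1588 genes had an unadjusted p under 0.05, and DESeq2 called 1 member).

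The CsA experiment followed the same family in WT mice with or without CsA, an inhibitor of the Cn phosphatase. Mice were selected for inhibition by NFAT dephosphorylation in the thymus, not in the aorta. In the aorta, Rcan1 still rose after CsA at 2 h of Ang-II, although it was lower than in WT at that time. By RT-qPCR in aortas, the study reports that CsA inhibited expression of an NFAT-responsive transcript of Rcan1. The value given here is for all transcripts of the gene. How far the phosphatase was inhibited in the sequenced aortas was not tested. In WT aortas all 7 members rose after 2 h of Ang-II (21.4% of all genes passed), with a median of 2.34 against 0.02 over all genes. No member lost this call whichever library was left out. Summed markers of smooth muscle, endothelium, fibroblasts and macrophages overlapped between these groups.

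Fos had signals of 13.3, 18.8 and 55.5 in untreated WT and 426, 675 and 567 after 2 h, a rise of 4.47 ± 0.53 (SE; limma adjusted p = 2.02e-05). Fosb went from 13.5, 22.1 and 32.2 to 429, 386 and 526, by 4.35 ± 0.47 (1.01e-05). Fosl1 went from 0.256, 0.731 and 0.426 to 20.7, 8.69 and 23.1, by 4.13 ± 0.45 (9.98e-06). For these 3 genes the untreated and treated libraries were far apart, although untreated replicate 3 had the highest Fos and Fosb of its group.

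Fosl2 rose from 83.8, 109 and 132 to 377, 282 and 361 (1.66 ± 0.21; limma adjusted p = 5.06e-05). Jun rose from 84.1, 126 and 256 to 661, 791 and 682 (2.34 ± 0.35; 0.000204). Both Junb and Jund, which had not passed in Cn-Ctl, passed here, where Junb was read at 412 to 2878 reads per library. Junb rose from 23.8, 15.5 and 24.4 to 84.8, 109.9 and 100.04 (2.21 ± 0.25; 1.43e-05). Jund rose from 383, 347 and 590.5 to 1000.2, 910.0 and 919.8 (1.14 ± 0.19; 0.000598), and its untreated replicate 3 was again the highest of the group, as for Jun.

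After CsA, 6 members rose at 2 h (20.1% of all genes passed), with a median of 1.81 against −0.02 over all genes. Smooth muscle markers were higher (21700 to 27900 against 17700 to 19900) and macrophage markers lower (141 to 156 against 253 to 324) than in untreated CsA aortas, and their part was not tested. Fos went from 30.7, 13.7 and 7.64 to 54.0, 66.6 and 160.1, by 2.45 (limma adjusted p = 0.0048). Fosb went from 11.3, 9.92 and 7.30 to 53.9, 115 and 196, by 3.44 (0.000198), and Fosl1 from 0.369, 0.224 and 0.712 to 3.91, 15.4 and 9.05, by 3.26 (0.000198). In each of these genes CsA replicate 1 had the lowest treated value.

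Fosl2 rose from 74.4, 72.1 and 56.7 to 185, 303 and 239 (1.81; limma adjusted p = 5.83e-05), Jun from 114, 92.8 and 73.2 to 239, 357 and 362 (1.77; 0.00287), and Jund from 290.4, 322 and 358 to 468, 711 and 660.5 (0.90; 0.00468). Junb was the exception, at 36.5, 33.8 and 26.8 untreated and 30.1, 46.1 and 58.1 after 2 h. Its ranges overlapped, and the difference of 0.42 ± 0.25 (SE) did not pass (limma adjusted p = 0.237).

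**Figure D2:**
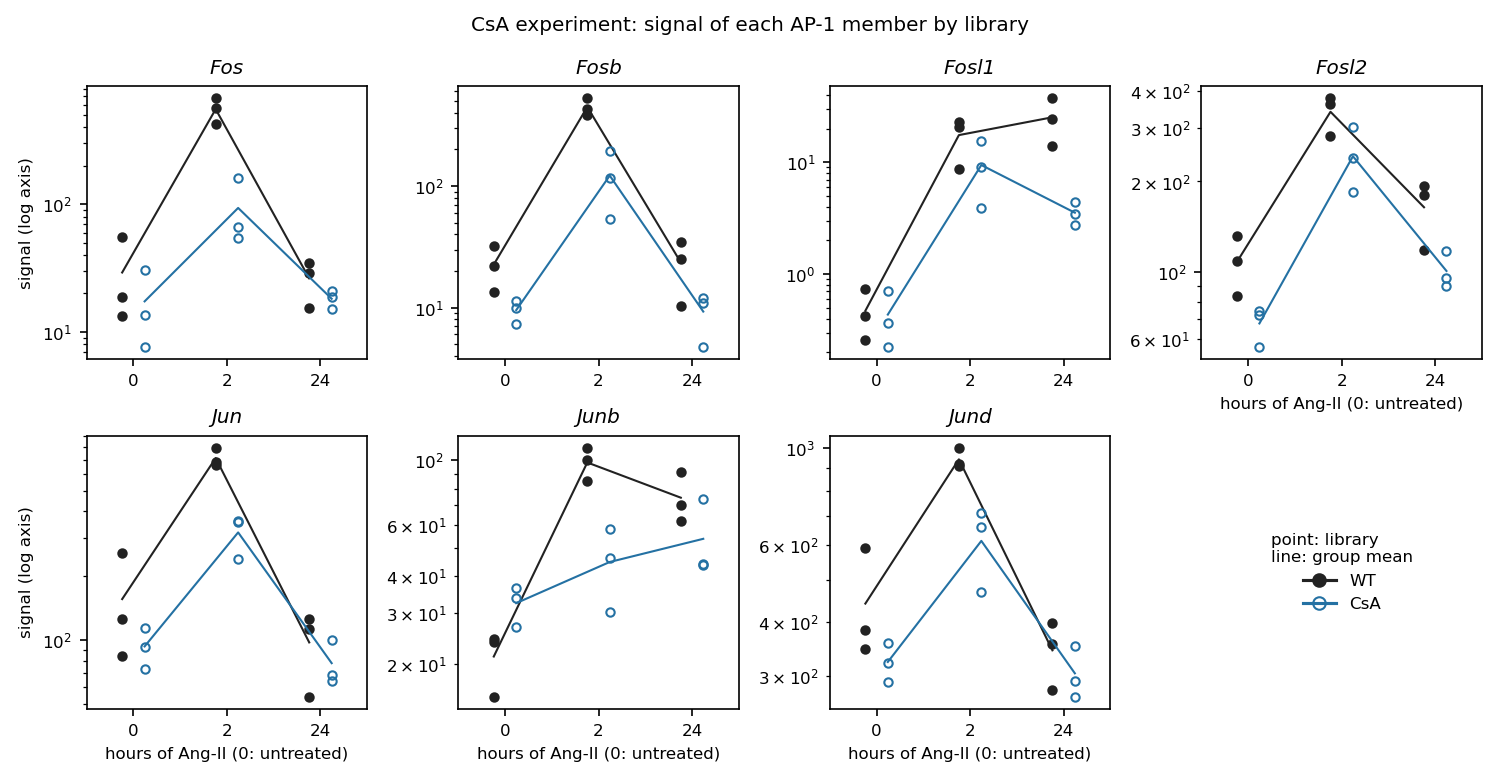
Signal of each AP-1 member (log axis) in every library of the CsA experiment against hours of Ang-II, with 0 for untreated. Points are libraries and lines join group means, filled for WT and open for CsA. At 2 h the CsA points for Fos (54.0 to 160.1) and Junb (30.1 to 58.1) lie below the WT points (426 to 675 and 84.8 to 109.9), and at 24 h those for Fosl1 do (2.75 to 4.41 against 13.9 to 37.2).

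Compared directly after 2 h of Ang-II, 3 members were lower in CsA than in WT (1.33% of all genes passed). These were Fos by −2.71 (limma adjusted p = 0.0263), Fosb by −2.05 (0.0455) and Junb by −1.17 (0.038). The libraries of Fos, Fosb, Jun, Junb and Jund did not overlap between the arms, a count not set against all genes. However, Jun (−1.18, 0.0997) and Jund (−0.64, 0.101) did not pass, nor did Fosl1 (−0.93, 0.279) and Fosl2 (−0.51, 0.222), whose libraries overlapped. None of the 3 calls held when only these 2 groups were fitted, under quantile normalization or with the replicate block, while DESeq2 called 5 members, these 3 with Jun and Jund. Fos and Fosb each lost the call without 4 of the 6 libraries, WT replicate 1 or 3 and CsA replicate 1 or 2 (Fos −2.40 to −2.89, Fosb −1.56 to −2.10), Fosb also in edgeR (−1.875), and Junb without 5 of 6, all except CsA replicate 3 (−0.91 to −1.27).

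The response to 2 h of Ang-II did not pass as different between CsA and WT for any member, with 0 of 7 (0.146% of all genes passed in limma, and 1898 genes had an unadjusted p under 0.05). The difference of the responses was −1.78 ± 0.35 (SE) for Junb (limma adjusted p = 0.0675), which passed in DESeq2 (−1.73) and when only the groups compared were fitted. It was −2.02 ± 0.74 for Fos (0.262), −0.91 ± 0.67 for Fosb (0.559), −0.57 for Jun (0.624), −0.87 for Fosl1 (0.551), −0.23 for Jund (0.733) and 0.15 for Fosl2 (0.851). Before Ang-II, 1 member differed between the arms (25.2% of all genes passed), Fosl2, which was lower after CsA by −0.66 ± 0.21 (limma adjusted p = 0.0336). That call was lost without untreated WT replicate 2 (−0.64) or 3 (−0.50) or CsA replicate 2 (−0.71) or 3 (−0.54). All 3 untreated CsA libraries also lay below WT for Fosb (mean 9.52 against 22.57, −1.14, limma adjusted p = 0.089). They lay above WT for Junb (32.35 against 21.22, 0.61, 0.0816), and neither member passed. These untreated groups enter the differences in response.

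Summed smooth muscle markers were lower after CsA both before Ang-II (17700 to 19900 against 27600 to 37900 in WT) and at 2 h (21700 to 27900 against 30600 to 38300). The 8 endothelial markers were higher, at 1010 to 1170 against 381 to 654 before Ang-II and at 844 to 1040 against 582 to 638 at 2 h. Macrophage (253 to 324 against 96.2 to 139) and adipocyte markers (1090 to 1920 against 227 to 453) were also higher after CsA before Ang-II. The part of these markers in the differences between the arms was not tested.

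**Figure D3:**
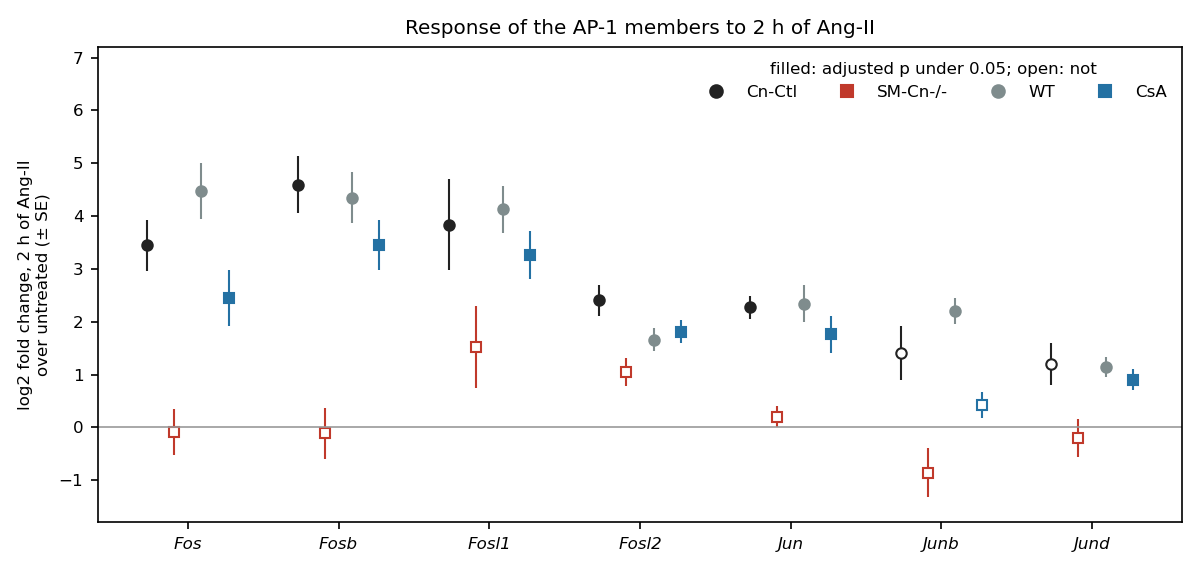
Log2 fold change of each member after 2 h of Ang-II over untreated, by arm (WT, CsA, Cn-Ctl and SM-Cn-/-), with bars for the SE of the limma fit. Filled symbols passed at an adjusted p under 0.05 and open ones did not, and a reader should see Fos at 4.47, 2.45, 3.45 and −0.09 and Junb at 2.21, 0.42, 1.40 and −0.86 in the arms in that order. Fosl1 in SM-Cn-/- is a fitted value against untreated libraries with 0 reads. The 2 experiments were scaled and fitted separately.

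At 24 h the members followed separate courses. In WT, 3 members lay above untreated (35% of all genes passed), and the median of the 7 was 0.04 against 0.00 over all genes. Fosl1 remained 4.65 above untreated (limma adjusted p = 2.48e-06), with signals of 24.6, 37.2 and 13.9, and Junb 1.80 above (5.52e-05), with 70.1, 91.1 and 62.0. Fosl2, at 193, 181 and 119, was 0.59 above (0.0413), a call lost with the replicate block and without untreated replicate 1 or 2 or treated replicate 1 or 2 (0.42 to 0.61). Fos, at 34.7, 28.7 and 15.4, and Jun, at 126, 112 and 54.3, overlapped their untreated ranges. Summed macrophage markers (250 to 368 against 96.2 to 139 untreated) and endothelial markers (681 to 813 against 381 to 654) were higher in WT at 24 h. Smooth muscle and fibroblast markers overlapped, and the part of markers in these rises was not tested.

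Between 2 and 24 h, 5 members fell in WT (36.2% of all genes passed): Fos by −4.43, Fosb by −4.37, Jun by −2.95, Jund by −1.47 and Fosl2 by −1.07. The same number fell in CsA (18% of all genes passed), with Fosb at −3.56, Fos at −2.18, Jun at −2.03, Fosl2 at −1.24 and Jund at −0.99. Neither Fosl1 nor Junb passed between 2 and 24 h in either arm.

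After CsA, 1 member was above untreated at 24 h (8.98% of all genes passed), Fosl1, at 2.13 (limma adjusted p = 0.00966) with signals of 4.41, 2.75 and 3.47. Fosl1 was also the 1 member lower in CsA than in WT at that time (5.58% of all genes passed), by −2.59 ± 0.45 (SE; 0.00642), and all 3 CsA libraries lay below all 3 WT libraries. Its response at 24 h was smaller after CsA than in WT by −2.53 ± 0.64 (limma adjusted p = 0.0226), the 1 member of 7 to pass where 9.42% of all genes did. The direct difference lost its call when only these groups were fitted and without WT replicate 2 (−2.26). The difference in response lost it under quantile normalization (−1.96), in edgeR (−2.70) and without WT 24 h replicate 2 (−2.20), untreated CsA replicate 3 (−2.32) or CsA 24 h replicate 2 (−2.38). Junb, at 43.6, 44.0 and 73.7 after CsA, overlapped with WT at 24 h. At 24 h summed fibroblast markers were lower after CsA than in WT (1150 to 1480 against 1520 to 1830) and adipocyte markers higher (655 to 1930 against 420 to 516). Endothelial markers (812 to 1360 after CsA and 681 to 813 in WT) and smooth muscle markers (20200 to 29300 and 25000 to 35100) overlapped. Smooth muscle markers at 24 h after CsA also lay above untreated CsA (17700 to 19900). The part of these markers in the values of Fosl1 was not tested.

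To compare the members with each other, signal was divided by the length of the longest coding transcript, from 1668 bases for Jund to 6537 for Fosl2. Per kb, Jund had the highest mean in all 14 groups, overlapping with Fos in Cn-Ctl at 2 and 6 h, and Fosl1 the lowest in 11, and in untreated aortas the means had the same order in both genotypes: Jund (67.9 signal per kb for Cn-Ctl, 70.1 for SM-Cn-/-), Jun (19.2 and 21.8), Fosl2 (11.8 and 13.02), Fos (10.5 and 8.35), Fosb (3.45 and 3.78), Junb (1.68 and 1.70) and Fosl1. In these groups the libraries of Fosl2 and Fos overlapped, and those of the other neighbors in the order did not. After 2 h in Cn-Ctl, Jund (174), Fos (133), Jun (94.3), Fosb (86.2) and Fosl2 (61.2) followed each other with overlapping neighbors. Fos moved above Jund there without replicate 1 (176 against 129), and at 6 h without replicate 3 (79.7 against 44.2). At 2 h in SM-Cn-/- Jund (62.5) stayed apart from Fosl2 (25.4) and Jun (25.2).

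Summed over the 7 members, signal per kb was 112 and 117 in the 2 untreated Cn-Ctl libraries and 457 to 694 after 2 h, and the Fos genes supplied 22.6% ± 7.0 (SD, n = 2) of it before and 51.3% ± 12.1 (SD, n = 3) after 2 h. At 6 h the sum was 216 to 299 and the Fos share 57.9% ± 10.9. In SM-Cn-/- the sum stayed between 83.8 and 151 over all 4 times, with mean Fos shares from 21.1% to 30.1%. The untreated and the 2 h ranges of the sum overlapped in SM-Cn-/- (104.5 to 128 and 108 to 151) and did not in Cn-Ctl.

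In the CsA experiment the sum went from 288 to 503 in untreated WT to 1238 to 1324 after 2 h, with a Fos share of 9.95% ± 1.86 before and 34.4% ± 2.97 after (SD, n = 3). After CsA it went from 259 to 267 untreated to 442 to 711 at 2 h, with 8.16% ± 2.91 and 18.95% ± 4.25 from the Fos genes. The 2 h sums and the 2 h Fos shares (31.0% to 36.7% in WT, 15.9% to 23.8% after CsA) did not overlap between the arms. By 24 h Junb (41.1 signal per kb) was next to Jund (206) in WT, with libraries that overlapped those of Jun (30.6). These sums and shares carry no test, and levels were not compared across the 2 experiments, which were scaled separately. The shares and the order of members take reads per kb as recovered alike for each gene, which was not tested. Untreated, the mean Fos share was 22.6% in Cn-Ctl and 9.95% in WT.

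**Figure D4:**
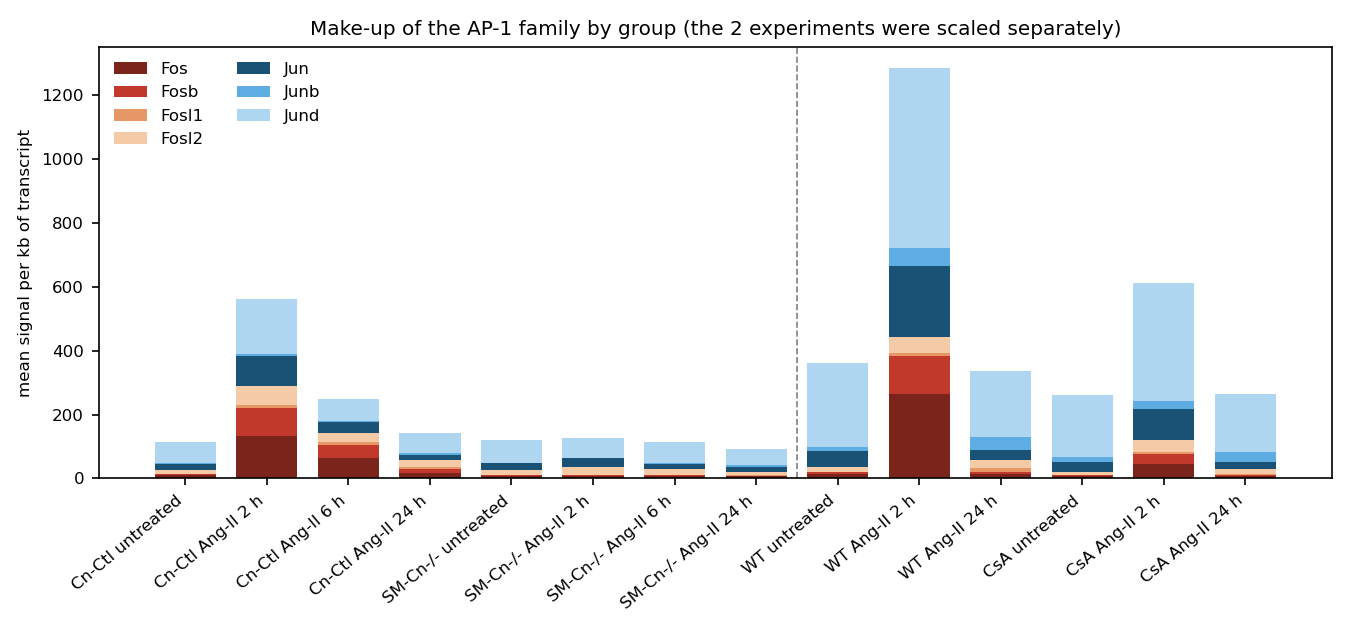
Mean signal per kb of transcript of the 7 members, stacked, in each of the 14 groups of both experiments, with Fos genes in red and orange and Jun genes in blue. The stack reached 563 in Cn-Ctl after 2 h against 126 in SM-Cn-/-, and 1286 in WT against 611 after CsA, and Jund formed the largest layer in the 14 group means, although below Fos without 1 library in Cn-Ctl at 2 h (replicate 1) and 6 h (replicate 3).

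Members also differed in how far replicate libraries spread. The median SD of log2 signal within groups of the CsA experiment was 0.71 for Fos, 0.65 for Fosb and 0.54 for Fosl1, against 0.34 for Jun, 0.32 for Junb, 0.28 for Fosl2, 0.23 for Jund and 0.16 for the typical gene. In the genotype experiment Fosl1 had the widest spread (1.00), followed by Fos (0.58) and Junb (0.57), and Jun the narrowest (0.22), with 0.32 for the typical gene. As a description, across the 18 libraries of the CsA experiment, which share their groups and scaling, Fos, Fosb, Jun and Jund moved together (Pearson r from 0.912 to 0.967 among them), and Fosl1 was closest to Junb (0.82) and far from Jun (0.413). Across the 22 libraries of the genotype experiment r was 0.908 between Fos and Fosb, 0.841 between Fos and Jun and 0.155 between Jun and Junb. These correlations are descriptions and mostly follow the group means.

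Outside the family, the genes whose log2 signal most resembled each member over the libraries of the CsA experiment were Btg2 (0.977), Zfp36 (0.972) and Egr1 (0.972) for Fos, Irs2 (0.976) for Fosb, Klf6 (0.984) for Fosl2, and Atf3 and Nr4a1 (0.984 each) for Jun. Fosl1 was closest to Pvr (0.976), the poliovirus receptor, to Plau (0.969), which encodes urokinase, and to Rras2 (0.963), and Junb to Socs3 (0.956), the cytokine signaling inhibitor, and Stat3 (0.914). In the genotype experiment the closest were Nr4a1 (0.91) and Nr4a3 (0.908) for Fos, Rcan1 (0.93) for Fosb, Hbegf (0.925) for Fosl1, Ifrd1 (0.974) and Ctgf (0.97) for Fosl2, and Atf3 (0.942) and Bag3 (0.931) for Jun. No gene passed 0.844 for Junb (Il17ra) or 0.83 for Jund (Srsf7) there.

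Of 19 other bZIP genes, which include possible partners of AP-1 proteins, 17 were tested and Batf and Batf3 were not listed. After 2 h, 8 rose and 0 fell in Cn-Ctl (median 1.10) while SM-Cn-/- had 1 rise (0.32), 11 rose in WT (0.82), and 8 rose and 1 fell after CsA (0.45). Of all genes 6.23%, 1.13%, 21.4% and 20.1% passed in these comparisons, with medians within 0.02 of 0 over all genes. At 2 h, 6 were lower in SM-Cn-/- than in Cn-Ctl (3.7% of all genes passed). Atf3, a stress-induced partner of Jun, rose by 4.06 ± 0.32 (SE) in Cn-Ctl and by 3.37 ± 0.44 in WT and 3.59 ± 0.44 after CsA, and in SM-Cn-/- it had a difference of 0.87 ± 0.28 that did not pass. Its response was the 1 of the list that passed as different between the genotypes (−3.20 ± 0.42, limma adjusted p = 0.000808), where 0.513% of all genes passed. Nfil3 (4.42 ± 0.65), Maff (3.02 ± 0.32) and Cebpd (1.95 ± 0.28) also rose in Cn-Ctl, and Maff rose in SM-Cn-/- too (1.39 ± 0.29, limma adjusted p = 0.016).

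Kinases and factors upstream of the family had medians at 2 h of 0.10 in Cn-Ctl, 0.07 in WT and 0.08 after CsA. The list held 26 such genes (MAP kinases, serum response factor and its partners, MEF2 factors, Creb1 and the Ang-II receptors). At 2 h, 1 rose in Cn-Ctl (6.23% of all genes passed), Elk4, which encodes a cofactor of serum response factor (0.73 ± 0.22). In SM-Cn-/- at 2 h, 0 rose (1.13%), and 0 differed between the treated genotypes then (3.7%). In WT 5 rose and 2 fell where 21.4% of all genes passed, and after CsA 7 rose and 2 fell where 20.1% did. Mapk8, which encodes the kinase JNK, was 0.50 higher in WT and 0.54 after CsA, Map2k4, which encodes an activator of JNK, was 0.49 and 0.66 higher, and Mapk14, which encodes a p38 kinase, was lower by −0.60 and −0.57, all past the threshold.

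Other immediate early genes gave counts on a larger list, with 30 of 31 tested (Egr4 was not listed). After 2 h, 22 of them rose in Cn-Ctl (median 1.98) but 9 in SM-Cn-/- (0.33), with 26 up and 1 down in WT (1.91) and 25 up after CsA (1.39), where 6.23%, 1.13%, 21.4% and 20.1% of all genes passed. At 2 h, 21 were lower in SM-Cn-/- than in Cn-Ctl (3.7% of all genes passed) and 9 differed in response (0.513%). In CsA 6 were lower than in WT (1.33%). Arc (4.59 ± 0.58 in Cn-Ctl), Myc (4.47 ± 0.55) and the nuclear receptor gene Nr4a3 (3.97 ± 0.30) each differed in response between the genotypes (limma adjusted p = 0.0171, 0.00607 and 0.00161). Ctgf, which encodes a matricellular growth factor, rose in all 4 arms (WT 2.87, CsA 3.16, Cn-Ctl 3.66 and SM-Cn-/- 2.10).

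Genes known as AP-1 targets in other settings were examined at 2 and 24 h, with 23 of 25 tested and Mmp13 and Areg not listed. After 2 h, Cn-Ctl had 13 that rose (median 2.04), SM-Cn-/- 0 (0.20), WT 7 (0.48) and CsA 8 (0.18). All genes passed at 6.23%, 1.13%, 21.4% and 20.1%, against which the 7 and 8 of 23 in WT and CsA are to be read. Between the genotypes at 2 h, 7 were lower in SM-Cn-/- (3.7% of all genes passed) and 4 differed in response (0.513%). At 24 h, 13 were above untreated in Cn-Ctl (5.62% of all genes passed) and 2 in SM-Cn-/- (0.79%), 8 were lower in SM-Cn-/- than in Cn-Ctl (4.94%), and 4 differed in response (0.513%). In the CsA experiment at 24 h, 18 were above untreated in WT (2.03, where 35% of all genes passed) and 7 after CsA (0.72, 8.98%), and 14 were lower in CsA than in WT (−1.34, 5.58%). At 2 h, 0 differed between CsA and WT (1.33% of all genes passed). The difference in response passed for 11 at 24 h (9.42%) and for 0 at 2 h (0.146%).

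Of the named targets, Plaur, the urokinase receptor gene, was 3.04 ± 0.24 (SE) above untreated in WT at 24 h and 1.63 ± 0.24 after CsA, and this response differed (−1.41 ± 0.34, limma adjusted p = 0.0194). Ptgs2, which encodes cyclooxygenase, rose by 4.45 ± 0.55 in Cn-Ctl at 2 h, and Hbegf, which encodes an epidermal growth factor receptor ligand, by 2.84 ± 0.37.

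Heat shock genes, a stress-induced group outside AP-1, were examined at 2 h as well. All 12 rose in Cn-Ctl (median 2.68) and in WT (2.40), 11 rose after CsA (2.05) and 1 in SM-Cn-/- (0.76), where 6.23%, 21.4%, 20.1% and 1.13% of all genes passed. At 2 h, 11 were lower in SM-Cn-/- than in Cn-Ctl (3.7% of all genes passed) and 11 differed in response (0.513%). Between CsA and WT 0 differed at that time (1.33%). Dnajb1, which encodes a co-chaperone, rose by 4.61 ± 0.37 (SE) in Cn-Ctl, while its difference of 0.87 ± 0.33 in SM-Cn-/- did not pass (limma adjusted p = 0.241), and Hspb1, which encodes a small heat shock protein, rose by 3.96 ± 0.35 and 1.47 ± 0.31 in Cn-Ctl and SM-Cn-/-. The near-identical Hspa1a (4.78) and Hspa1b (5.15 in Cn-Ctl) can share reads, so their separate values are uncertain. These medians stand beside all-gene medians between −0.02 and 0.02 at 2 h within each arm.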

How the data were processed

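Oligo-dT primed RNA from pools of 3 mouse aortas was sequenced on a Genome Analyzer IIx. The submitters' processing notes name Bowtie 0.12.7, RSEM 1.16 and GRCm38, and the authors left out 1 untreated Cn-Ctl library after principal component analysis. The signal tables deposited by the authors hold, per gene and library, reads with 0.5 added, per M reads of a scaled library size. Reads recovered from them were whole for 100% of values (tolerance 0.01). No column of the tables was left unmapped. Total signal per library was 919723 to 1179362 in the genotype experiment and 877583 to 1154874 in the CsA experiment.

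Genes not annotated as protein-coding (2952 and 1643, with 26 and 15 more lacking a biotype) were left out. Genes with signal of at least 1 in at least 2 libraries (14424 and 13738) entered limma 3.58.1 (R 4.3.3) with an intensity trend, on log2(signal + 0.5), with 1 mean per group and all groups of an experiment. Adjusted p-values are Benjamini-Hochberg over all genes of a comparison. The pseudocount understates changes of low genes. The fit was tested on simulated data. An exact permutation test of 3 against 3 libraries cannot go below p = 0.1 and was not used. Alternatives were pseudocounts of 0 and 1, all genes listed (protein-coding or not, with the same signal filter) and a filter at 5. Others were quantile normalization, median-ratio scaling, only the groups compared and a replicate block. The last were edgeR 4.0.16 and DESeq2 1.42.0 on recovered reads, and leaving out each library. Motif matches and figures were made with Python 3.11.15.

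The members and gene lists were chosen with earlier results of these data known. Named genes were the 7 members, from each list up to 4 genes with the largest absolute fold change among those past the threshold at 2 h in WT or Cn-Ctl, list genes that were not measured, the genes most correlated with each member, and Ppp3r1 and Rcan1 as checks. Some genes that this rule takes are not reported here. Pools are separate replicates per the labels, and p-values measure the spread between pools.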

Additional observations from a re-analysis of the deposited data

Results flagged for a closer look

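The responses of 3 members to 2 h of Ang-II differed between the genotypes in a test of the difference itself (limma, 0.513% of all genes passed). The differences were −4.70 ± 0.73 (SE, adjusted p = 0.00244) for Fosb, −3.54 ± 0.64 (0.0101) for Fos and −2.07 ± 0.29 (0.00102) for Jun. At 6 h the same test passed for Fosb, at −4.74 ± 0.73 (limma adjusted p = 0.0148, 0.0624% of all genes passed). The response of Fosl1 to 24 h of Ang-II differed between CsA and WT by −2.53 ± 0.64 (limma adjusted p = 0.0226), where 9.42% of all genes passed. The calls of Fosb and Jun at 2 h held whichever library was left out, and the others did not. Groups held 2 or 3 libraries, too few to look for a library that stands apart within a group.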

How the results depend on the processing

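Of 1129 alternative settings for the 70 member values past the threshold, 104 lost the call and 0 changed direction. Of the 25 values not past it that were recomputed, those of the 2 h comparisons, direction changed for Fos in SM-Cn-/- at 2 h (−0.30 to 0.051 when libraries were left out), for Fosl1 in the 2 h genotype difference in response (0.80 in edgeR) and for Fosl2 in the 2 h CsA difference in response (−0.021 to 0.333 when libraries were left out). The cause was not tested in these cases.

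The number of members past the threshold changed by more than 1.5 times as follows, and by 1 member in other cases. With only the groups compared it became 3 of 7 for Cn-Ctl at 6 h and 1 at 24 h, 2 and 1 for SM-Cn-/- against Cn-Ctl at 6 and 24 h, 0 for SM-Cn-/- at 6 h against 2 h, 3 for untreated CsA against WT, 0 for CsA against WT at 2 and 24 h, and 1 and 2 for the CsA differences in response at 2 and 24 h. With DESeq2 it became 1 for Cn-Ctl at 24 h and for SM-Cn-/- at 2 h, 3 and 1 for the genotype differences in response at 6 and 24 h, 3 for CsA at 24 h, 5 and 2 for CsA against WT at 2 and 24 h, and 1 and 2 for the CsA differences in response at 2 and 24 h. With quantile normalization it became 1 for Cn-Ctl at 6 h against 2 h, 0 for SM-Cn-/- at 6 h against 2 h, 2 for CsA at 24 h, 0 for CsA against WT at 2 h and 0 for the CsA difference in response at 24 h, which was also 0 in edgeR. For SM-Cn-/- at 6 h against 2 h it was 0 with a pseudocount of 1 and with all genes listed, and for SM-Cn-/- at 2 h it was 1 with the stricter filter. Changes by 1 member included 7 to 6 for SM-Cn-/- against Cn-Ctl at 2 h (pseudocount of 0, quantile normalization and only the groups compared), 5 to 4 for Cn-Ctl at 24 h against 2 h (all genes listed, quantile normalization, median-ratio scaling and only the groups compared), 5 to 6 for Cn-Ctl at 2 h and 3 to 4 for the 2 h genotype difference in response (DESeq2), and 3 to 2 for CsA against WT at 2 h (edgeR).

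Leaving out single libraries gave 4 to 6 members for Cn-Ctl at 2 h, 2 to 5 at 6 h and 0 to 1 at 24 h, 0 to 1 for SM-Cn-/- at each time, 4 to 7, 4 to 4 and 1 to 3 for SM-Cn-/- against Cn-Ctl at 2, 6 and 24 h, and 2 to 4, 0 to 1 and 0 to 1 for the genotype differences in response. It gave 1 to 2 and 2 to 5 for Cn-Ctl at 6 and 24 h against 2 h, and 0 to 1 and 0 to 2 for SM-Cn-/-. It gave 2 to 3 for WT at 24 h, 0 to 1 for untreated CsA against WT, 0 to 3 for CsA against WT at 2 and at 24 h, 0 to 2 for the 24 h CsA difference in response, and 5 to 6 for CsA at 24 h against 2 h.

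Replicate numbers did not pair the libraries as a rule. Same-numbered libraries had correlations of deviations from −0.374 to 0.339 (median 0.0587, 71 pairs) in the genotype experiment. In the CsA experiment these ran from −0.389 to 0.377 (median −0.0283, 45 pairs). For untreated CsA with CsA at 2 h they were 0.169, 0.377 and 0.362, and for Cn-Ctl at 6 h with SM-Cn-/- at 2 h 0.206, 0.135 and 0.297. With the replicate block the count became 1 for SM-Cn-/- at 2 h and 0 for CsA against WT at 2 h, and Fosl2 in WT at 24 h lost its call.

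Counts over all genes also moved with the setting. For SM-Cn-/- at 2 h, 163 genes passed in limma, 275 with the block and 395 in DESeq2. For CsA against WT at 2 h, 183 passed in limma, 68 with quantile normalization, 58 with the block, 2 with only these groups and 801 in DESeq2. For the 2 h CsA difference in response, 20 passed in limma, 1 with quantile normalization or the block, 70 with only the groups compared and 323 in DESeq2. For the 2 h genotype difference, 74 passed in limma, 35 with quantile normalization and 175 in DESeq2. Quantile normalization moved the genes past the threshold from 1562 higher and 1375 lower to 1078 and 1613 for WT at 2 h, and from 681 higher of 899 to 449 of 690 for Cn-Ctl at 2 h. Read counts were low for Junb throughout the genotype experiment, at 5 to 99 reads per library, and for Fosl1 in part of it, with 0 reads in 3 untreated SM-Cn-/- libraries.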
